A study of Mus musculus with 18 samples.

Results

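Interferon-stimulated genes are the genes that cells switch on in answer to interferons, the cytokines that warn tissues of infection. A set of 38 such mouse genes was followed among the 54838 genes of the deposited count table. Members were found by matching each Ensembl identifier to its symbol in the GENCODE M21 annotation, and all 38 symbols had a row. Of these, 37 passed the filter on low counts that precedes testing. The exception was Ifi47, with 0 to 2 counts in any library.

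Polysomal RNA, which sediments with strings of translating ribosomes in a sucrose gradient, and unfractionated total RNA were sequenced from 3 kinds of C57BL/6 wild-type mouse cells. Bone marrow kept in culture for 5 days gave rise to MDSC (myeloid-derived suppressor cells), a mixed population known for holding back T cells, which were sorted as CD11b-high cells. The population here called LY6G was Ly6G-high and Ly6C-intermediate, and the population called LY6C was Ly6G-negative and Ly6C-high. Both were plated after the sort and collected on the following day with cycloheximide, which holds ribosomes on their mRNA. Bone marrow (BM) was flushed from the femurs of 3 mice, and its red cells were lysed with ACK buffer. No group received an interferon or an infection that the labels name. Each kind of cell gave 3 polysomal and 3 total libraries, so 18 libraries formed 6 groups of 3. The sorted groups carried the replicate numbers 2, 3 and 6, and the BM groups 1, 2 and 3. Sorted cells differ from BM in culture, sort, plating and cell makeup together, so these cannot be told apart in any comparison with BM. In such bulk samples fewer cells of a type and less RNA per cell cannot be told apart either.

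Type I interferons bind the receptor made of Ifnar1 and Ifnar2, whose kinases Jak1 and Tyk2 set off signalling in the cell. Stat2 and Irf9 act in a complex that binds the interferon-stimulated response element (ISRE), while interferon gamma acts through the gamma-activated sequence (GAS). The induced proteins sense viral RNA, block translation or viral assembly, modify proteins with the ubiquitin-like Isg15, and call in T cells through Cxcl10. Irf7, Irf9 and Stat2 are themselves induced and feed back on the pathway, and Usp18 damps the receptor.

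The promoters of the members were searched for the ISRE and GAS motifs. The members were chosen as genes that answer interferon, so an excess of these motifs among them is no independent result. A RefSeq promoter of GRCm38.p6, taken as 250 bases before to 50 bases after the start of the gene, was found for 30 of the 38 members. The ISRE core, read as GAAA, any 2 bases and GAAA again and searched on both strands with overlapping matches allowed, lay in 18 of these 30 promoters (60%), against 1079 of 27025 genes with a promoter (3.99%). The GAS core TTCNNNGAA lay in 8 of 30 (26.7%), against 2582 of 27025 (9.55%), and 21 members held at least 1 of the 2 motifs. A match is a run of letters and not a shown binding site. Stretches around the matches follow for members of different roles, in the 5′ to 3′ direction of the gene, with the matches in capitals and 20 bases on either side. The stretch of Isg15, with 3 overlapping matches, is from chr4:156200855-156200916 on the minus strand. Those of Ifit3 and Ifit3b, from chr19:34583353-34583436 and chr19:34607749-34607832 on the plus strand, are identical letter for letter. Rsad2 is shown from chr12:26456543-26456592 (minus strand), Gbp2 from chr3:142620584-142620633 (plus) and Cxcl10 from chr5:92349073-92349122 (minus). Bst2 is shown from chr8:71537567-71537622 (minus) and Stat2 from chr10:128270256-128270305 (plus).
Isg15: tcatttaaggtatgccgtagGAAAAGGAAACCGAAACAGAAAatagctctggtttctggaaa
Ifit3: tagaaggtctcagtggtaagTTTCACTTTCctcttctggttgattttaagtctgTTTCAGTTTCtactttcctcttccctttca
Ifit3b: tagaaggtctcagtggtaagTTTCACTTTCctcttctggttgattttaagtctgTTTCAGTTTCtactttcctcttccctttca
Rsad2: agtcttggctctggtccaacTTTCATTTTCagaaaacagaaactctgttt
Gbp2: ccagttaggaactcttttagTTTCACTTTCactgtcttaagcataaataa
Cxcl10: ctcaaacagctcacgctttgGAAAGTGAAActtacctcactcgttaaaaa
Bst2: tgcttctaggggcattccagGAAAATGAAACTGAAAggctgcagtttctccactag
Stat2: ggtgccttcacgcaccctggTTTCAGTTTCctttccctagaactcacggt

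Levels are given as CPM, the count of a gene over the scaled size of its library, and the depth behind them differed sharply between sorted cells and BM. Total counts were 8559897 to 21138649 in sorted libraries and 12107504 to 26225431 in BM libraries. After TMM scaling 1 CPM was worth 18 to 110 counts in sorted libraries. It was worth 1.73 to 3.51 counts in BM polysomal and 0.472 to 0.611 counts in BM total libraries, so BM levels rest on this scaling. Protein-coding genes held 37.3% to 94.6% of the counts in sorted cells, against 1.83% to 3.72% in BM polysomal and 0.249% to 0.323% in BM total RNA. The 38 genes together drew 9859 to 177930 counts in a sorted library, 344 to 782 in a BM polysomal library and 53 to 97 in a BM total library. A count of 0 in all 3 libraries allows up to 0.371 CPM over the BM polysomal group and 1.91 CPM over the BM total group, so such a gene could not be detected with so few reads, which does not make it absent. Intervals and floors cover counting error only. Summed CPM of the erythroid markers (5 genes) was 291 to 830 in BM, against 0.0476 to 6.77 in sorted cells, and that of stromal markers (4 genes) 1980 to 6800 against 1.46 to 6.64. Macrophage markers (4 genes) summed to 189 to 904 CPM in sorted cells and to 19.1 to 40.8 CPM in BM, and the genes of the sort gates Itgam, Ly6g, Ly6c1 and Ly6c2 to 104 to 636 and 2.12 to 34.8 CPM. The part of these markers in the results was not tested.

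Per kilobase of exon, Bst2 and Isg15 were the most abundant members in every sorted group. Bst2 encodes tetherin, which holds budding virus particles on the cell, and had 66.4 CPM per kb in polysomal and 54.3 in total RNA of LY6G, and 117 and 92.6 in polysomal and total RNA of LY6C. Isg15 had 51.9, 29.5, 135 and 38.1 CPM per kb in the same 4 groups, second to Bst2 except in LY6C polysomal RNA, where it came first. In BM the order was Bst2 (18.3 CPM per kb in polysomal and 31.7 in total RNA), Rsad2 (7.94 and 8.12), Isg15 (5.05 and 5.49) and Ifi35 (3.36 and 4.56), and no other member passed 3.11 CPM per kb in either BM group. Herc6, Ifi44 and Gbp5 were among the lowest tested members in sorted cells, with 0.444 to 1.75 CPM per kb. These are group means whose libraries spread widely, so that close neighbours in the order, such as Isg15 and Bst2 in LY6C polysomal RNA, do not differ beyond that spread.

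**Figure D1:**
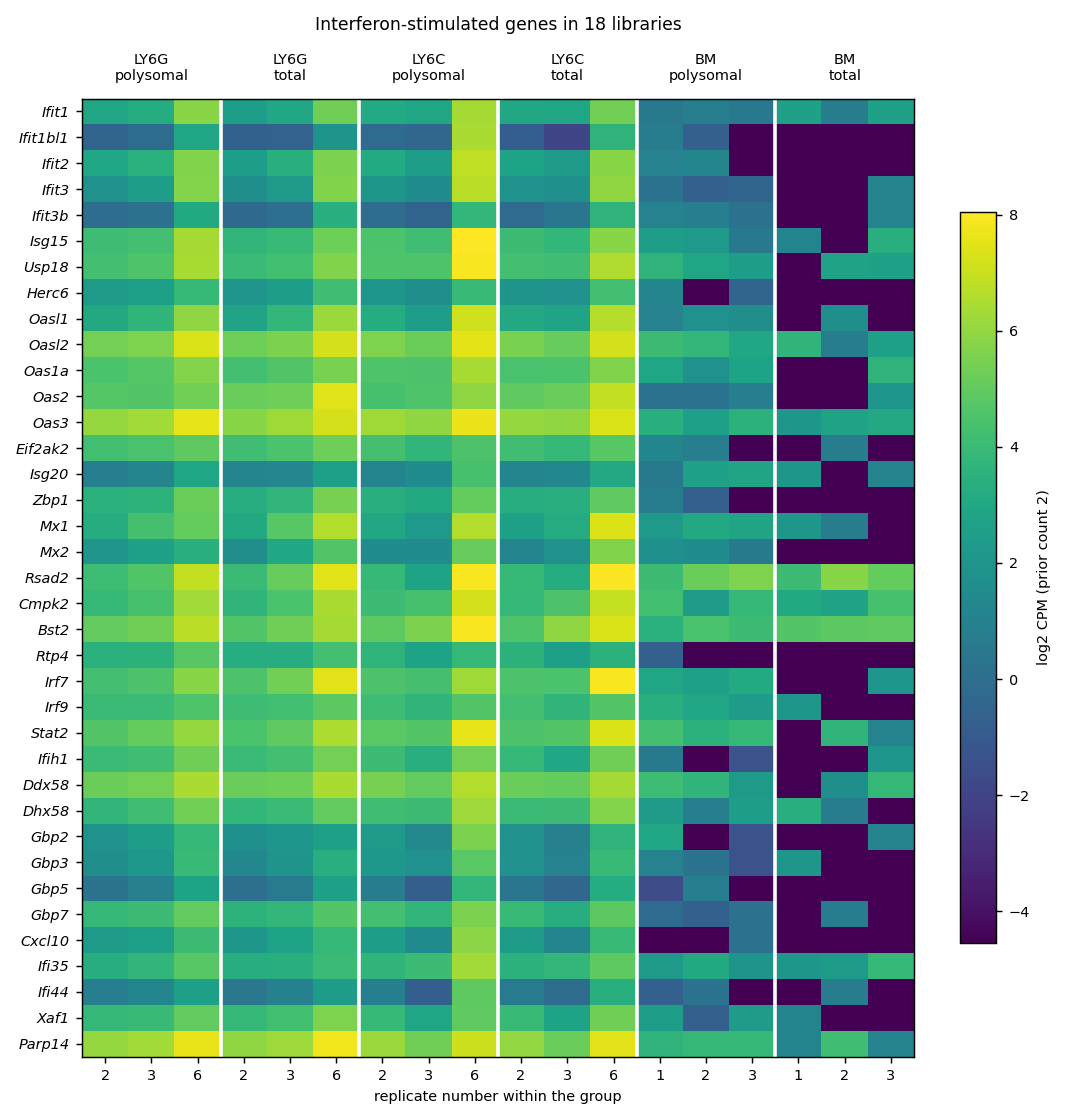
Log2 CPM (prior count of 2) of the 37 tested genes, with genes in rows by role and the 18 libraries in columns by group and replicate number. Libraries numbered 6 are brighter than numbers 2 and 3 in each sorted group, and the darkest cells of the BM columns are genes with 0 counts.

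Among the sorted libraries the members stood furthest apart between replicate numbers. Number 6 lay above both number 2 and number 3 in all 4 sorted groups for 36 of the 37 tested members, a pattern seen in 12.8% of all tested genes. The median member stood above the mean of numbers 2 and 3 by 1.52 on the log2 scale in LY6G polysomal RNA and 1.70 in LY6G total RNA, and by 2.82 in LY6C polysomal RNA and 2.20 in LY6C total RNA. Over all tested genes these medians were -0.02, 0.04, -0.02 and -0.01. Numbers 3 and 2 differed less, with median members of 0.29, 0.40, -0.41 and -0.19 for number 3 minus number 2 in the same 4 groups. Each group has only 1 library with number 6, so the split has no replicate check and no test. The labels do not say what libraries of 1 number share.

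The IFIT proteins, which bind foreign RNA and hinder its translation, showed the widest split by role, with a median of 3.54 on the log2 scale over 5 genes. In polysomal RNA, Ifit3 (ENSMUSG00000074896, chr19:34583531-34588731) had 3.5, 5.58 and 52 CPM in LY6G, 4.37, 2.89 and 107 CPM in LY6C and 1.14, 0.578 and 0.703 CPM in BM, where the sorted values are in the order of numbers 2, 3 and 6 and the BM values in that of 1, 2 and 3, as throughout. In total RNA it had 3.27, 4.55 and 50.2 CPM in LY6G, 3.65, 3.33 and 62.7 CPM in LY6C and 0, 0 and 2.07 CPM in BM. Number 6 was thus the high library in each sorted group, and the remaining sorted libraries lay closer to BM than to it. The largest distance of any member belonged to Ifit1bl1, a gene of the same cluster, at 6.72 in LY6C polysomal RNA and 3.12 in LY6G polysomal RNA. Ifit1, Ifit2 and Ifit3b were likewise higher with number 6 in all 4 sorted groups.

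Genes of Isg15 conjugation had a median split of 2.27 over 3 genes. Isg15 (ENSMUSG00000035692, chr4:156199424-156200818), the ubiquitin-like modifier, had 17.8, 19.3 and 80.6 CPM in LY6G, 22.2, 18.2 and 265 CPM in LY6C and 5.42, 4.63 and 1.41 CPM in BM in polysomal RNA. Total RNA gave 13.3, 15.7 and 37.9 CPM in LY6G, 17.2, 13.8 and 55.4 CPM in LY6C and 2.12, 0 and 10.3 CPM in BM for the same gene. The LY6C polysomal library of number 6 was the highest of all 18, and no sorted library overlapped BM in either fraction. Usp18, which removes Isg15 from proteins, and Herc6, its ligase in mice, followed the same order of numbers.

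The OAS family, whose members make the 2′,5′-oligoadenylates that activate RNase L or are their catalytically inactive relatives, had with the other RNA and DNA responsive enzymes a lower median split of 1.66 over 8 genes. Oasl1 (ENSMUSG00000041827, chr5:114923240-114937915), a relative known in mice to hold back translation of Irf7 mRNA, had 8.51, 12.8 and 63.1 CPM in LY6G, 9.42, 5.56 and 139 CPM in LY6C and 2, 3.47 and 3.16 CPM in BM in polysomal RNA. Its total RNA levels were 6.96, 13.9 and 70 CPM in LY6G, 8.21, 6.87 and 101 CPM in LY6C and 0, 3.27 and 0 CPM in BM. Number 6 was the high library in each group, and every sorted library of Oasl1 lay above every BM library. Eif2ak2 (ENSMUSG00000024079, chr17:78852564-78882573), the kinase PKR that halts translation on double-stranded RNA, had 18.9, 21.8 and 30.5 CPM in LY6G, 20.3, 13.5 and 22.7 CPM in LY6C and 2.28, 1.73 and 0 CPM in BM in polysomal RNA. In total RNA Eif2ak2 stood at 18, 22.4 and 38 CPM in LY6G, 18.1, 14.4 and 27.6 CPM in LY6C and 0, 1.64 and 0 CPM in BM. It was among the members least moved by number 6, and every sorted library lay above every BM library.

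Mx GTPases and other antiviral effectors had a median split of 2.69 over 6 genes, 5 of them above in all 4 groups. Mx1 (ENSMUSG00000000386, chr16:97447035-97462907), a dynamin-like GTPase that traps viral nucleocapsids, had 9.47, 20.4 and 33.1 CPM in LY6G, 7.99, 4.8 and 98.1 CPM in LY6C and 4.85, 8.67 and 7.03 CPM in BM in polysomal RNA. For total RNA the values were 8.55, 27 and 95.6 CPM in LY6G, 6.23, 9.2 and 164 CPM in LY6C and 4.23, 1.64 and 0 CPM in BM. LY6C libraries 2 and 3 of Mx1 overlapped BM in polysomal RNA, whereas number 6 did not. Rsad2 (ENSMUSG00000020641, chr12:26442746-26456452) encodes viperin, which makes a chain-ending nucleotide, and had 17.6, 24.6 and 118 CPM in LY6G, 14.6, 6.83 and 242 CPM in LY6C and 16.8, 37.6 and 48.8 CPM in BM in polysomal RNA. Rsad2 in total RNA had 16.4, 35.3 and 173 CPM in LY6G, 14.6, 9.48 and 250 CPM in LY6C and 16.9, 55.7 and 33.1 CPM in BM. Its BM libraries overlapped the LY6G libraries of numbers 2 and 3 in both fractions. The LY6C libraries of numbers 2 and 3 lay below every BM library in both fractions, and only number 6 stood above BM. Bst2 (ENSMUSG00000046718, chr8:71534255-71537456) had 32.6, 39.8 and 107 CPM in LY6G, 30, 47.1 and 240 CPM in LY6C and 11.4, 21.4 and 16.9 CPM in BM in polysomal RNA. Total RNA of Bst2 measured 24.9, 40.2 and 82 CPM in LY6G, 23.5, 63.1 and 164 CPM in LY6C and 25.4, 29.5 and 31 CPM in BM. Polysomal Bst2 separated sorted cells from BM, and total Bst2 did not. The single exception to the order of numbers was Rtp4, which number 6 put below number 2 in LY6C total RNA (11.5 and 11.8 CPM).

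Transcription factors of the set had a median split of 2.12 over 3 genes. Irf7 (ENSMUSG00000025498, chr7:141262706-141266481), the main driver of interferon alpha genes, had 19.3, 23.3 and 56.8 CPM in LY6G, 23.1, 20.1 and 75.8 CPM in LY6C and 7.13, 5.78 and 8.78 CPM in BM in polysomal RNA. In total RNA Irf7 had 23.1, 41.7 and 179 CPM in LY6G, 23, 22.5 and 240 CPM in LY6C and 0, 0 and 4.13 CPM in BM. Number 6 was again the high library, and more so in total than in polysomal RNA. Stat2 (ENSMUSG00000040033, chr10:128270559-128292849) had 25.7, 33.7 and 66.4 CPM in LY6G, 28.7, 25.7 and 191 CPM in LY6C and 19.7, 11.6 and 14.4 CPM in BM in polysomal RNA. Its level in total RNA was 22, 31.8 and 90.2 CPM in LY6G, 23.1, 25.8 and 162 CPM in LY6C and 0, 13.1 and 2.07 CPM in BM. Irf9 was the member least moved by number 6, by 0.55 to 0.77 on the log2 scale. RIG-I-like receptors, the cytosolic sensors of viral RNA, had a median split of 1.52 over 3 genes. Among them Ddx58 (ENSMUSG00000040296, chr4:40203773-40239828), which encodes RIG-I, had 37.4, 42.1 and 88.9 CPM in LY6G, 43.9, 32.4 and 98.2 CPM in LY6C and 17.4, 12.7 and 4.92 CPM in BM in polysomal RNA. Ddx58 in total RNA measured 36.1, 39 and 86.5 CPM in LY6G, 37.8, 33 and 80.4 CPM in LY6C and 0, 3.27 and 14.5 CPM in BM. All sorted libraries lay above all BM libraries in both fractions for Stat2 and Ddx58.

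Guanylate-binding proteins, GTPases that attack the vacuoles of intracellular microbes and answer chiefly to interferon gamma, had a median split of 2.18 over 4 tested genes. Gbp2 (ENSMUSG00000028270, chr3:142620602-142638008) had 3.62, 5.58 and 14.2 CPM in LY6G, 4.53, 2.59 and 47.7 CPM in LY6C and 7.7, 0 and 0.351 CPM in BM in polysomal RNA. Total RNA of Gbp2 gave 3.37, 4.14 and 6.07 CPM in LY6G, 3.55, 1.88 and 12.6 CPM in LY6C and 0, 0 and 2.07 CPM in BM. The BM polysomal library of number 1 exceeded 4 of the 6 sorted polysomal libraries for this gene. The chemokine Cxcl10 (ENSMUSG00000034855, chr5:92346638-92348889), the ligand of Cxcr3 on activated T cells, had a split of 2.29 with 4.91, 5.93 and 17 CPM in LY6G, 5.41, 2.79 and 58.4 CPM in LY6C and 0, 0 and 1.05 CPM in BM in polysomal RNA. Cxcl10 in total RNA had 4.34, 6.75 and 14.5 CPM in LY6G, 4.89, 2.22 and 15.3 CPM in LY6C and 0, 0 and 0 CPM in BM. The other induced genes Ifi35, Ifi44, Xaf1 and Parp14 had a median split of 1.59, each above in all 4 groups.

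**Figure D2:**
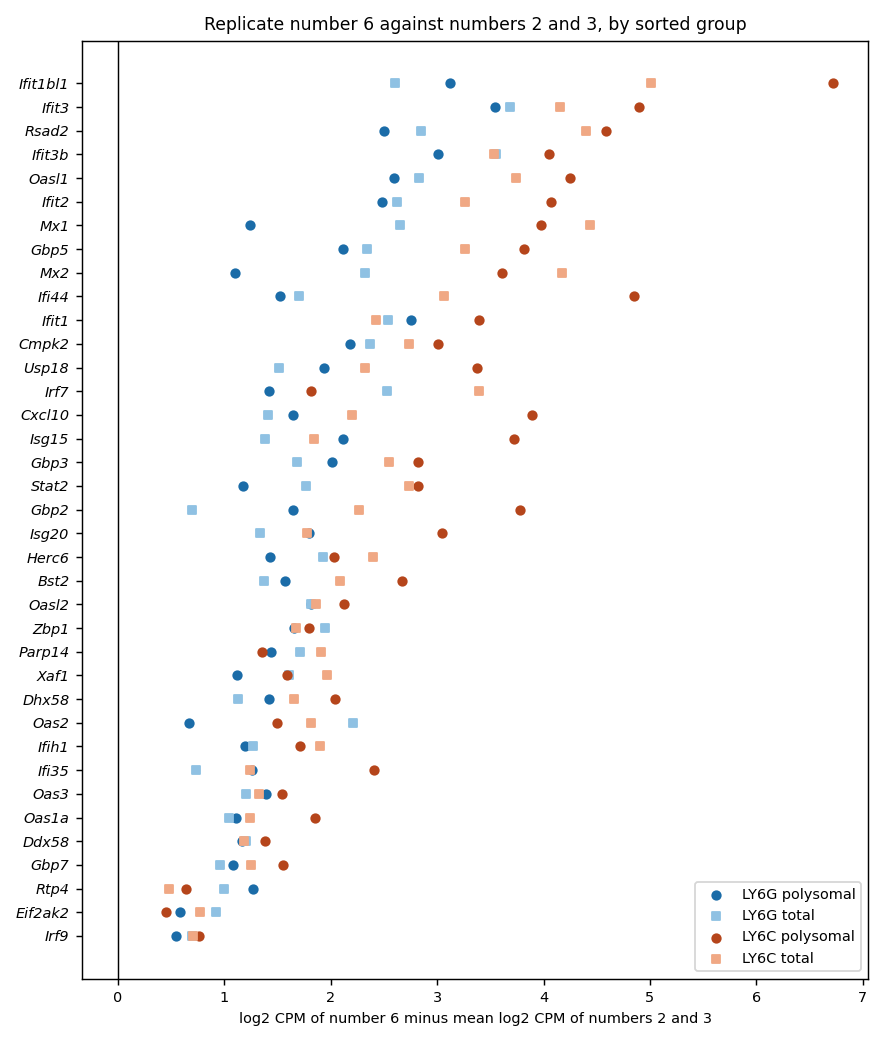
For each of the 37 tested genes, log2 CPM of replicate number 6 minus the mean log2 CPM of numbers 2 and 3, in LY6G (blue) and LY6C (brown) polysomal (circles) and total (squares) RNA, ordered by the mean over the 4 groups. Every point lies above 0, from 0.45 for Eif2ak2 to 6.72 for Ifit1bl1, both in LY6C polysomal RNA.

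Receptors, sensors and brakes of the pathway had smaller median splits than the members, whereas the ligand Ifnb1 stood at 2.52 and most further interferon-stimulated genes were higher with number 6. Of a list of 45 tested further genes, 38 were above in all 4 groups, with a median of 1.42, and Ifitm1 and Ifitm6 ran the other way at -2.22 and -1.49. Receptors and kinases had a median of 0.18 (1 of 7 above in all 4 groups), sensors and adaptors 0.05 (3 of 10) and brakes such as Socs1 -0.04 (0 of 6). Further transcription factors had a median of 0.73 (4 of 6), with Irf1 at 0.87. Of 10 ligand genes only Ifnb1, which encodes interferon beta, had enough counts to be tested. In the order of numbers 2, 3 and 6 it had 5, 11 and 23 counts in LY6G polysomal and 1, 4 and 9 in LY6G total RNA. The same numbers of LY6C gave 1, 0 and 26 polysomal and 2, 0 and 9 total counts, and all 6 BM libraries gave 0. Ifnb1 thus had its highest count with number 6 in each of the 4 groups, at counts too low to give more than an order.

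Marker levels moved with the replicate numbers as well. The summed level of 6 plasmacytoid dendritic cell markers was 25.5 to 31.4 CPM in the 4 libraries of number 6, against 10.5 to 15.5 CPM in the other sorted libraries and 22.7 to 63.6 CPM in BM. Of the 4 tested genes of that list, 3 were above numbers 2 and 3 in all 4 groups, with mean splits of 2.02 for Cox6a2, 1.30 for Irf8 and 0.83 for Tcf4, and Ly6d was above in 3 groups. Irf8, which is also an interferon-responsive gene, held most of the sum at 19 to 22.2 CPM with number 6 and 6.31 to 10.6 CPM with numbers 2 and 3, while Cox6a2 stayed at or under 0.467 CPM and Ly6d at or under 0.623 CPM in sorted cells. The defining markers Siglech and Ccr9 were too low to be tested, with at most 0.0416 and 0.0965 CPM in any sorted library. Macrophage markers summed to 488 to 904 CPM with number 6 and to 189 to 528 CPM with the others. Of these 4 genes 3 were above numbers 2 and 3 in all 4 groups, while Mrc1 ran the other way with a mean split of -0.98. Neutrophil markers (6 genes) summed to 308 to 808 CPM with number 6, and to 2700 and 3330 CPM in the 2 LY6C libraries of number 3. They summed to 599 to 888 CPM elsewhere in sorted cells and 568 to 2070 CPM in BM. Each of these 6 genes had a negative split in all 4 groups. Their mean splits ran from -1.04 for S100a9 to -2.54 for Elane, with a median of -1.26. In depth the libraries overlapped, 1 CPM being worth 23.9 to 90 counts with number 6 and 18 to 110 counts with the others. Erythroid markers (5 genes) summed in LY6G to 0.978 CPM in polysomal and 3.02 CPM in total RNA with number 6, against 0.0476 to 0.089 CPM in its other 4 libraries. In LY6C they summed to 0.752 and 1.83 CPM with number 6, against 1.22 to 6.77 CPM in the others, and BM had 291 to 830 CPM. B cell markers (5 genes) summed in LY6G to 1.8 and 1.15 CPM in polysomal and total RNA with number 6, against 0.143 to 0.589 CPM, and in LY6C to 0.752 and 0.623 CPM, against 1.66 to 5.15 CPM. T and NK cell markers (5 genes) summed to 0.333 to 6.75 CPM in sorted cells. The genes of the sort gates reached 636 CPM in the LY6C polysomal library of number 6, against 104 to 173 CPM in the other 11 sorted libraries. They did not move together there, with splits of 2.43 for Ly6c2, 2.52 for Ly6c1, 0.15 for Ly6g and -1.06 for Itgam. In LY6C total RNA the split of Ly6c2 was -0.05. The part of these markers in the split was not tested.

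Against BM, 14 to 21 of the 37 tested members were called higher in sorted cells and none was called lower. At least 10 counts were reached by 36 or 37 members in a sorted library, 13 to 19 in a BM polysomal library and 1 to 3 in a BM total library. Many members thus passed the filter through the sorted groups alone, and BM total RNA left little room for a lower call. The lack of lower calls and of negative differences therefore carries little weight. A gene was called when edgeR's quasi-likelihood test gave a Benjamini-Hochberg adjusted p under 0.05 over the 14181 tested genes. In polysomal RNA 16 of 37 members were higher in LY6G, where 22.1% of all tested genes were called higher and 15.3% lower, and 21 were higher in LY6C (all genes 20.2% higher, 11.2% lower). In total RNA 14 members were higher in LY6G (all genes 21.5% higher, 9.39% lower) and 16 in LY6C (all genes 20.5% higher, 7.4% lower). The groups did not overlap, with all 3 sorted libraries above all 3 BM libraries, for 30 members in LY6G and 27 in LY6C polysomal RNA, against 41.1% and 34.7% of all tested genes. In total RNA this held for 28 members in either population, against 54.2% of all tested genes in LY6G and 48.5% in LY6C. Median log2 differences of the members were 2.63 in LY6G and 3.04 in LY6C polysomal RNA, against 0.46 and 0.52 over all tested genes. In total RNA they were 3.91 in LY6G and 3.90 in LY6C (all genes 1.63 and 1.65), or 2.80 and 2.89 with the 8 members without a BM count set to their bound. Every fitted difference was positive except that of Isg20 in LY6G polysomal RNA (-0.36, unadjusted p = 0.701). With 0 BM counts, Ifit1bl1 in LY6G total RNA had a bound of only 0.877-fold, so that a higher level was not shown there. DESeq2, which could test 32 members, called 23 in LY6G (all genes 31.9%) and 27 in LY6C polysomal RNA (all genes 28.6%) higher, 22 in LY6G (all genes 22.1%) and 22 in LY6C total RNA (all genes 18.9%), and 0 lower. With the replicate number as a block 31 were higher in LY6G (all genes 30.4%) and 31 in LY6C polysomal RNA (all genes 28.5%), and 27 in LY6G (all genes 27%) and 28 in LY6C total RNA (all genes 25.8%). The 4 comparisons share the BM libraries within a fraction and are not independent of each other.

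These counts of called members leaned on single libraries. Without the LY6G polysomal library of number 6 the count there was 10 (all genes 19.1% higher), and without that of LY6C 13 in LY6C polysomal RNA (all genes 18.1%). In LY6C polysomal RNA it was also 13 without the BM polysomal library of number 3 (all genes 13.9%). Total RNA gave 9 in LY6C without its number 6 (all genes 16.3%), and 9 in both populations without the BM total library of number 2 (all genes 14.9% in LY6G and 13.7% in LY6C). Without number 6 in all 4 sorted groups the median log2 difference of the members was 1.72 in LY6G and 1.5 in LY6C polysomal RNA, against 0.33 and 0.34 over all tested genes, and 2.83 and 2.4 in total RNA, against 1.42 over all genes in both, while 22 members in LY6G and 20 in LY6C were then called higher in polysomal RNA (all genes 18.7% and 15.5%) and 22 and 17 in total RNA (all genes 14.7% and 13.5%). In LY6C 1 member was then called lower in each fraction, a count given without the share of all tested genes.

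In the OAS group the same 6 of 8 genes, all but Oasl1 and Isg20, were called higher in each of the 4 comparisons with BM. Oas3 (ENSMUSG00000032661, chr5:120753098-120777661) had 65.7, 79 and 189 CPM in LY6G, 77.4, 62.2 and 202 CPM in LY6C and 10.8, 5.78 and 11.6 CPM in BM in polysomal RNA and 56, 75.7 and 150 CPM in LY6G, 65.5, 61.4 and 159 CPM in LY6C and 4.23, 6.55 and 8.26 CPM in BM in total RNA. It was higher than in BM on the log2 scale by 3.54 ± 0.58 in LY6G (adjusted p = 9.71e-05) and 3.57 ± 0.58 in LY6C (adjusted p = 0.000112) in polysomal RNA, and by 3.88 ± 0.69 in LY6G (adjusted p = 0.000276) and 3.90 ± 0.69 in LY6C (adjusted p = 0.000307) in total RNA. Oas2 (ENSMUSG00000032690, chr5:120730333-120749853) had 26.2, 25.9 and 41.3 CPM in LY6G, 20.6, 23.9 and 62.6 CPM in LY6C and 1.14, 1.16 and 1.76 CPM in BM in polysomal RNA. In total RNA Oas2 measured 36.5, 38.7 and 174 CPM in LY6G, 31.1, 35.5 and 117 CPM in LY6C and 0, 0 and 4.13 CPM in BM, where the BM values rest on 2 counts. Its polysomal log2 differences were 4.51 ± 0.85 in LY6G (adjusted p = 0.000486) and 4.71 ± 0.85 in LY6C (adjusted p = 0.000434). Pooled total RNA counts were 63.8 times the BM level in LY6G (interval 17.7 to 527, adjusted p = 0.000513) and 35.4 times the BM level in LY6C (interval 9.79 to 292, adjusted p = 0.00123). The interval here and below is the exact 95% counting interval of that ratio, used where BM had 1 to 3 counts.

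The gene of PKR was among them, with polysomal Eif2ak2 higher than in BM by 4.14 ± 0.60 in LY6G (adjusted p = 2.43e-05) and 3.80 ± 0.60 in LY6C (adjusted p = 7.37e-05) on the log2 scale. On 1 BM count in total RNA, Eif2ak2 was 40.2 times the BM level in LY6G (interval 7.21 to 1590, adjusted p = 0.000289) and 30.1 times the BM level in LY6C (interval 5.39 to 1190, adjusted p = 0.000829). Zbp1 (ENSMUSG00000027514, chr2:173206612-173218923), a sensor of Z-form nucleic acid that can start cell death, had 11.4, 12.1 and 37.1 CPM in LY6G, 10.5, 8.56 and 33.1 CPM in LY6C and 1.71, 0.578 and 0 CPM in BM in polysomal RNA. Its log2 differences there were 4.58 ± 1.08 in LY6G (adjusted p = 0.00391) and 4.36 ± 1.08 in LY6C (adjusted p = 0.00665). Total RNA of Zbp1 had 9.91, 13.5 and 44.7 CPM in LY6G, 9.75, 10.1 and 31.8 CPM in LY6C and 0, 0 and 0 CPM in BM, which is at least 11.6-fold higher in LY6G (adjusted p = 0.0165) and at least 6.93-fold higher in LY6C (adjusted p = 0.0289). Oas1a (ENSMUSG00000052776, chr5:120896256-120907521) had 22.5, 26.4 and 52.9 CPM in LY6G, 24.2, 23.1 and 85.7 CPM in LY6C and 7.42, 3.47 and 6.68 CPM in BM in polysomal RNA, higher by 2.49 ± 0.69 in LY6G (adjusted p = 0.00843) and 2.88 ± 0.70 in LY6C (adjusted p = 0.00419). Oas1a in total RNA had 19.6, 24.7 and 45.3 CPM in LY6G, 21.3, 22.2 and 51.4 CPM in LY6C and 0, 0 and 12.4 CPM in BM. Without its own polysomal library of number 6, LY6C had smaller polysomal differences of 2.89 for Oas3, 4.06 for Oas2 and 2.001 for Oas1a, and LY6G of 2.94 for Oas3 and 3.82 for Zbp1, all still called. Total Oas3 in LY6C was at 3.25 without its number 6. Without the BM polysomal library of number 1, Eif2ak2 was at 5.11 in LY6G and 4.71 in LY6C and Zbp1 at 6.51 in LY6G, and without that of number 3 Eif2ak2 was at 3.15 in LY6C. Oasl1, with its wide spread, was not called, with polysomal differences of 3.33 ± 1.59 in LY6G (adjusted p = 0.114) and 4.19 ± 1.61 in LY6C (adjusted p = 0.0622).

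Among the IFIT proteins only Ifit1 was called, in polysomal RNA of both populations, although 3 of the 5 genes stood apart from BM there in each. Polysomal Ifit3 differed from BM by 4.57 ± 2.21 in LY6G (adjusted p = 0.12) and 5.47 ± 2.22 in LY6C (adjusted p = 0.0757) on the log2 scale. Its total RNA counts were 29.4 times the BM level in LY6G (interval 5.28 to 1160, adjusted p = 0.31) and 20.3 times the BM level in LY6C (interval 3.64 to 801, adjusted p = 0.288). Number 6 stood far above numbers 2 and 3 in each of these groups. With number 6 left out of all sorted groups the smaller polysomal differences of 2.29 in LY6G (adjusted p = 0.00742) and 1.945 in LY6C (adjusted p = 0.0261) were called.

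Isg15 rose in polysomal RNA by 3.37 ± 1.14 in LY6G (adjusted p = 0.0308) and 4.74 ± 1.19 in LY6C (adjusted p = 0.00703) on the log2 scale, and total RNA gave 2.52 ± 1.46 in LY6G (adjusted p = 0.215) and 2.88 ± 1.45 in LY6C (adjusted p = 0.159) without a call. The LY6G call was lost without the LY6G polysomal library of number 6, where the difference was 2.31, and without any 1 of the 3 BM polysomal libraries (adjusted p up to 0.136). In LY6C the call held with each library left out in turn, with values of 2.44 to 5.26, the lowest without its number 6. Usp18 was called in LY6C polysomal RNA, and Herc6 in none of the 4 comparisons.

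Of the Mx GTPases and other effectors, Rtp4 was called in all 4 comparisons, and Bst2 in LY6C polysomal RNA. Rtp4 (ENSMUSG00000033355, chr16:23520291-23614222), a Golgi chaperone of receptors that is induced by interferon, had 11.2, 11.4 and 27.4 CPM in LY6G, 12.3, 6.78 and 14.3 CPM in LY6C and 0.571, 0 and 0 CPM in BM in polysomal RNA. BM had 2 Rtp4 counts there, and pooled counts were 65.9 times the BM level in LY6G (interval 18.2 to 544, adjusted p = 2.06e-05) and 45.7 times the BM level in LY6C (interval 12.6 to 377, adjusted p = 8.62e-05). In total RNA Rtp4 had 9.7, 9.89 and 19.6 CPM in LY6G, 11.8, 5.77 and 11.5 CPM in LY6C and 0, 0 and 0 CPM in BM, which is at least 6.77-fold higher in LY6G (adjusted p = 0.00174) and at least 5.06-fold higher in LY6C (adjusted p = 0.00459). Polysomal Bst2 differed from BM by 1.87 ± 0.79 in LY6G (adjusted p = 0.0738) and 2.69 ± 0.81 in LY6C (adjusted p = 0.0185). The Bst2 call in LY6C was lost without the LY6C polysomal library of number 6, where the difference was 1.27 (adjusted p = 0.167), without number 6 in all sorted groups (1.07), and without the BM polysomal library of number 1 or 3. Total RNA differences of Bst2 were 0.78 ± 0.83 in LY6G (adjusted p = 0.509) and 1.54 ± 0.83 in LY6C (adjusted p = 0.186).

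Polysomal Mx1 differed from BM by 1.65 ± 1.38 in LY6G (adjusted p = 0.359) and 2.46 ± 1.40 in LY6C (adjusted p = 0.202), and on 3 BM counts total Mx1 was 21.8 times the BM level in LY6G (interval 7.47 to 106, adjusted p = 0.126) and 16.5 times the BM level in LY6C (interval 5.64 to 79.9, adjusted p = 0.0937). Without number 6 in all sorted groups the LY6C polysomal difference of Mx1 was -0.20. Rsad2 gave polysomal differences of 0.64 ± 1.42 in LY6G (adjusted p = 0.74) and 1.35 ± 1.43 in LY6C (adjusted p = 0.493) and total RNA differences of 1.07 ± 1.51 in LY6G (adjusted p = 0.612) and 1.35 ± 1.52 in LY6C (adjusted p = 0.557). Its direction turned with number 6 left out of the sorted groups, to -0.82 in LY6G (adjusted p = 0.212) and to -1.81 in LY6C polysomal RNA (adjusted p = 0.0123). Mx2 and Cmpk2 were called in none of the 4 comparisons.

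The transcription factor Irf9, the DNA-binding part of the interferon-activated complex, was called in all 4 comparisons. Irf9 (ENSMUSG00000002325, chr14:55603571-55610030) had 16.4, 16.1 and 23.8 CPM in LY6G, 17.6, 13 and 25.8 CPM in LY6C and 10.6, 7.52 and 5.27 CPM in BM in polysomal RNA, higher than in BM by 1.26 ± 0.43 in LY6G (adjusted p = 0.0262) and 1.26 ± 0.43 in LY6C (adjusted p = 0.0308). Total RNA of Irf9 had 17.8, 18.9 and 29.8 CPM in LY6G, 19.2, 12.8 and 25.7 CPM in LY6C and 4.23, 0 and 0 CPM in BM. On 2 BM counts this was 17.2 times the BM level in LY6G (interval 4.77 to 142, adjusted p = 0.000442) and 15.3 times the BM level in LY6C (interval 4.22 to 126, adjusted p = 0.000897). Irf7 was called in total RNA alone, where on 2 BM counts it was 61.7 times the BM level in LY6G (interval 17.1 to 509, adjusted p = 0.0108) and 44.8 times the BM level in LY6C (interval 12.4 to 370, adjusted p = 0.00937). Its polysomal differences were 2.18 ± 1.01 in LY6G (adjusted p = 0.102) and 2.44 ± 1.02 in LY6C (adjusted p = 0.0808). Stat2 was called in LY6C total RNA, with total differences of 3.11 ± 1.22 in LY6G (adjusted p = 0.0654) and 3.67 ± 1.22 in LY6C (adjusted p = 0.0345) and polysomal differences of 1.45 ± 0.92 in LY6G (adjusted p = 0.23) and 2.41 ± 0.95 in LY6C (adjusted p = 0.0644).

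All 3 RIG-I-like receptors were called in polysomal RNA of both populations and in LY6C total RNA, and Ifih1 and Ddx58 in LY6G total RNA too. Ifih1 (ENSMUSG00000026896, chr2:62595798-62646255), which encodes MDA5, had 16.5, 18.4 and 40.2 CPM in LY6G, 16.8, 10 and 42.6 CPM in LY6C and 1.43, 0 and 0.351 CPM in BM in polysomal RNA, higher by 5.12 ± 0.95 in LY6G (adjusted p = 0.000441) and 5.01 ± 0.95 in LY6C (adjusted p = 0.000685). Total RNA of Ifih1 measured 16.2, 19.5 and 42.8 CPM in LY6G, 14.3, 7.71 and 39.3 CPM in LY6C and 0, 0 and 4.13 CPM in BM. On 2 BM counts this was 20.1 times the BM level in LY6G (interval 5.57 to 166, adjusted p = 0.0117) and 13.7 times the BM level in LY6C (interval 3.79 to 113, adjusted p = 0.0236). Polysomal Ddx58 was higher by 2.26 ± 0.63 in LY6G (adjusted p = 0.0087) and 2.31 ± 0.63 in LY6C (adjusted p = 0.00916), and total Ddx58 by 3.22 ± 0.80 in LY6G (adjusted p = 0.00515) and 3.12 ± 0.81 in LY6C (adjusted p = 0.00726). The Ddx58 calls in LY6C were lost without the BM polysomal library of number 3 (adjusted p = 0.0526) and, in total RNA, without the BM total library of number 2 (adjusted p = 0.0534). Leaving out single BM total libraries put total Ddx58 at 2.61 without number 1 and 4.80 without number 3 in LY6G, and at 2.48 and 4.68 in LY6C. Polysomal Ifih1 was at 4.25 in LY6C without its number 6, and at 6.86 in LY6G and 6.65 in LY6C without the BM library of number 1. Dhx58, which encodes LGP2, completed the group.

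Among the GTPases Gbp7 was called in all 4 comparisons. Gbp7 (ENSMUSG00000040253, chr3:142530342-142550149) had 14.2, 16.9 and 32.8 CPM in LY6G, 19.1, 13.5 and 47.1 CPM in LY6C and 0.856, 0.578 and 1.05 CPM in BM in polysomal RNA, higher by 4.62 ± 0.70 in LY6G (adjusted p = 4.11e-05) and 4.94 ± 0.70 in LY6C (adjusted p = 2.68e-05). Without its number 6 the LY6C difference was 4.27. In total RNA Gbp7 had 12, 14 and 25.2 CPM in LY6G, 15.8, 9.65 and 29.5 CPM in LY6C and 0, 1.64 and 0 CPM in BM. On 1 BM count this was 26.3 times the BM level in LY6G (interval 4.73 to 1040, adjusted p = 0.00266) and 27 times the BM level in LY6C (interval 4.85 to 1070, adjusted p = 0.00241). Gbp3 was called in LY6C polysomal RNA, and Gbp5 and Gbp2 in none. Gbp2 differed from BM in polysomal RNA by 1.34 ± 1.19 in LY6G (adjusted p = 0.384) and 2.56 ± 1.20 in LY6C (adjusted p = 0.119). Pooled polysomal counts of Cxcl10, on 3 BM counts, were 24.3 times the BM level in LY6G (interval 8.31 to 118, adjusted p = 0.0502) and 33.5 times the BM level in LY6C (interval 11.4 to 163, adjusted p = 0.0173). The Cxcl10 call was lost without the LY6C polysomal library of number 6 or the BM polysomal library of number 1 (adjusted p up to 0.0698). Total Cxcl10 was at least 4.32-fold higher in LY6G (adjusted p = 0.196) and at least 3.25-fold higher in LY6C (adjusted p = 0.231), neither of them called.

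Parp14 and Xaf1 were called in all 4 comparisons, Ifi35 in LY6C polysomal RNA and Ifi44 in none. Parp14 (ENSMUSG00000034422, chr16:35832874-35871544), an ADP-ribosyltransferase, had 67.6, 78.9 and 198 CPM in LY6G, 70.7, 40.5 and 137 CPM in LY6C and 12.3, 14.5 and 14.1 CPM in BM in polysomal RNA, higher by 3.08 ± 0.73 in LY6G (adjusted p = 0.00326) and 2.61 ± 0.72 in LY6C (adjusted p = 0.0105). In total RNA Parp14 measured 61.9, 74.7 and 223 CPM in LY6G, 64.3, 35.9 and 181 CPM in LY6C and 2.12, 18 and 2.07 CPM in BM, higher by 3.91 ± 0.86 in LY6G (adjusted p = 0.00233) and 3.56 ± 0.86 in LY6C (adjusted p = 0.0052). Ifi35 (ENSMUSG00000010358, chr11:101448407-101458698) had 9.86, 13.3 and 27.6 CPM in LY6G, 12.9, 16.8 and 78.3 CPM in LY6C and 4.85, 8.67 and 3.87 CPM in BM in polysomal RNA, with differences of 1.60 ± 0.66 in LY6G (adjusted p = 0.0651) and 2.68 ± 0.67 in LY6C (adjusted p = 0.00532). Without the LY6C polysomal library of number 6 the LY6C difference of Ifi35 was 1.44 (adjusted p = 0.0495), and without number 6 in all sorted groups it was 1.26 (adjusted p = 0.0334). Parp14 without the number 6 library of the same group was at 2.45 in LY6G polysomal, 3.12 in LY6G total and 2.60 in LY6C total RNA, and without the BM total library of number 2 at 5.77 in LY6G and 5.39 in LY6C total RNA. The 3 LY6G libraries and the 3 LY6C libraries of these genes lay above BM wherever a call is given.

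**Figure D3:**
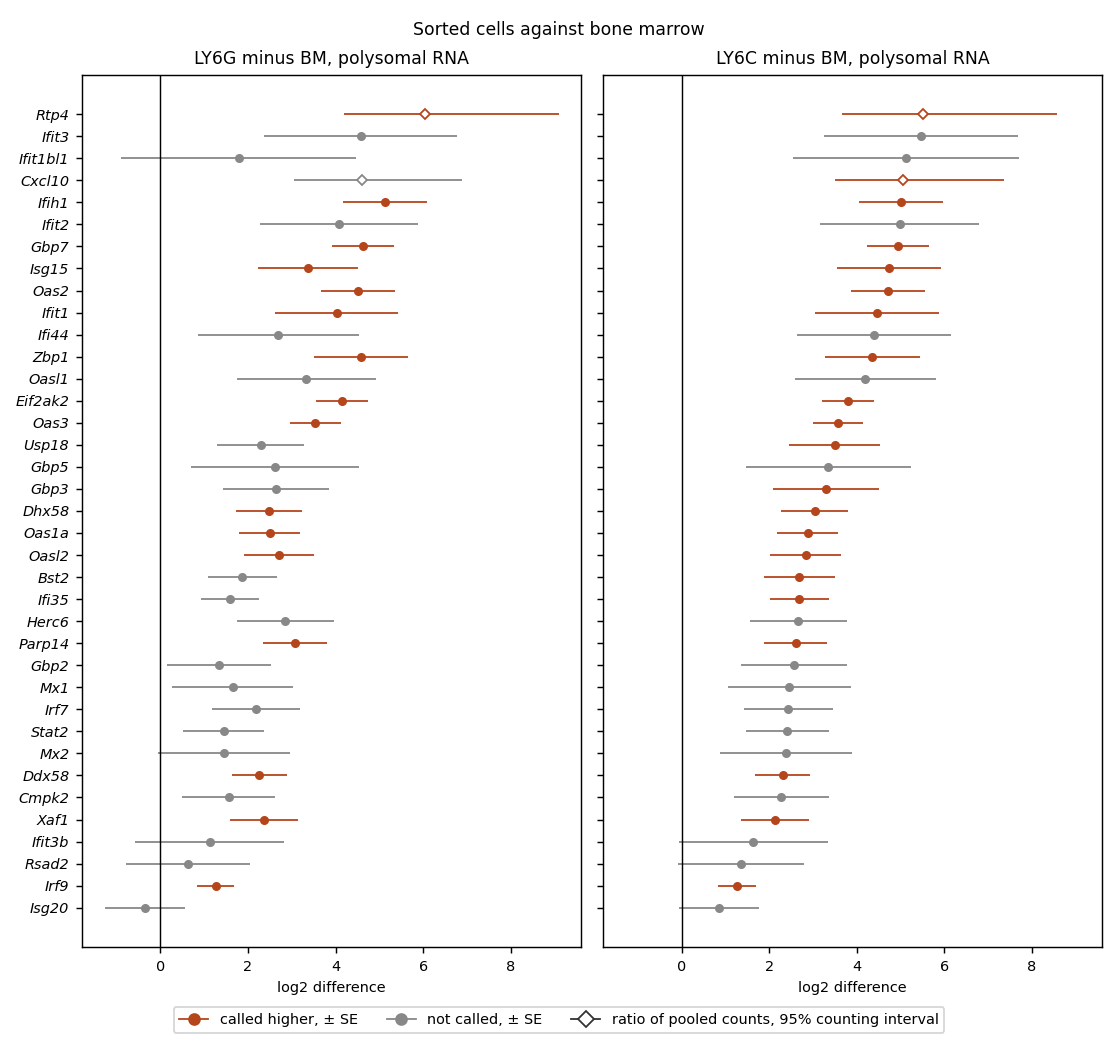
Log2 differences of polysomal RNA from BM for the 37 tested genes in LY6G (left) and LY6C (right), with bars of 1 SE and called genes in brown. Open diamonds show Rtp4 and Cxcl10, with 2 and 3 BM counts, as ratios of pooled counts with their 95% counting interval, and only Isg20 in LY6G lies below 0.

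Other pathway genes are read here against the shares of all tested genes called higher, 22.1% in LY6G and 20.2% in LY6C polysomal RNA and 21.5% and 20.5% in total RNA, and called lower, 15.3% and 11.2% in polysomal and 9.39% and 7.4% in total RNA. Of 7 receptors and kinases, 6 were called higher in LY6G polysomal, 4 in LY6C polysomal and 6 in total RNA of either population, and none lower. Ifnar1 had polysomal differences of 1.18 ± 0.40 in LY6G (adjusted p = 0.0242) and 0.55 ± 0.39 in LY6C (adjusted p = 0.302), and Ifngr1, the interferon gamma receptor, 0.60 ± 0.33 in LY6G (adjusted p = 0.158) and 0.73 ± 0.33 in LY6C (adjusted p = 0.0982). Polysomal Jak2 rose by 1.82 ± 0.41 in LY6G (adjusted p = 0.00185) and 1.75 ± 0.41 in LY6C (adjusted p = 0.00309). Among 6 transcription factors, 3 were called higher in LY6G polysomal RNA and 4 in each of the other comparisons, and Irf8 was called lower in polysomal RNA of both populations. Irf5 rose in polysomal RNA by 3.19 ± 0.47 in LY6G (adjusted p = 3.45e-05) and 2.72 ± 0.47 in LY6C (adjusted p = 0.000191), and Irf1 differed by 0.86 ± 0.44 in LY6G (adjusted p = 0.128) and 0.89 ± 0.44 in LY6C (adjusted p = 0.129).

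Of 10 sensors and adaptors 6 were called higher in polysomal RNA of either population, 5 in LY6G total and 4 in LY6C total RNA. Tlr4, the receptor for lipopolysaccharide, rose in polysomal RNA by 5.63 ± 0.58 in LY6G (adjusted p = 1.14e-06) and 4.67 ± 0.58 in LY6C (adjusted p = 1.11e-05). Among 6 brakes 4 were called higher and Trim24 lower in polysomal RNA of both populations, and 5 higher and Trim24 lower in total RNA. Socs1, which blocks the Jak kinases, rose in polysomal RNA by 3.67 ± 0.44 in LY6G (adjusted p = 3.07e-06) and 3.06 ± 0.44 in LY6C (adjusted p = 2.87e-05), and Socs3 by 6.57 ± 0.86 in LY6G (adjusted p = 1.48e-05) and 6.54 ± 0.86 in LY6C (adjusted p = 2.03e-05). Of the 45 tested further interferon-stimulated genes 14 were called higher in LY6G and 21 in LY6C polysomal RNA, 16 in LY6G and 14 in LY6C total RNA, and none lower. These are shares of 31.1% and 46.7% in LY6G and LY6C polysomal RNA and 35.6% and 31.1% in LY6G and LY6C total RNA. Psmb8, a subunit of the immunoproteasome, rose in polysomal RNA by 2.59 ± 0.45 in LY6G (adjusted p = 0.000171) and 2.95 ± 0.46 in LY6C (adjusted p = 6.53e-05). The ligand Ifnb1 was not called in any of the 4.

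Between the 2 MDSC populations no member was found to differ beyond the spread of the libraries. In polysomal RNA 0 of 37 members were called (all tested genes 0%), 0 had an unadjusted p under 0.05, DESeq2 called 0, and the lowest adjusted p was 0.845. In total RNA there were likewise 0 calls (all tested genes 0%), 0 at an unadjusted p under 0.05 and 0 by DESeq2, with a lowest adjusted p of 1. LY6G and LY6C overlapped for every member in both fractions. Of the sort gate genes in total RNA, Ly6g averaged 4.03 CPM in LY6G and 3.38 CPM in LY6C, with overlapping libraries. Ly6c2 averaged 58.3 CPM in LY6G and 84.2 CPM in LY6C there, without overlap and without a call. The median log2 difference of LY6G minus LY6C was -0.67 in polysomal RNA, with 8 members above and 29 below 0, against -0.03 over all tested genes. In total RNA it was -0.23, with 12 above and 25 below 0, against 0.00. Isg15 averaged 39.2 ± 35.8 CPM in LY6G and 102 ± 141 CPM in LY6C polysomal RNA (SD, n = 3 each), a log2 difference of -1.37 ± 0.96.

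The sign of these medians depended on number 6, which fell to 1 library of each group. Without the LY6C polysomal library of number 6 the polysomal median was 0.96, and without that of LY6G -1.46. Without the LY6C total library of number 6 the median of total RNA was 1.18, and without that of LY6G -0.91. With number 6 left out of all sorted groups the medians were 0.27 in polysomal and 0.20 in total RNA. A block for the replicate number, which the libraries pair by, gave -0.13 and 0.05 and again 0 called members.

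No member was found to differ between polysomal and total RNA beyond the spread between libraries of a group in any kind of cell. The fits here, DESeq2 included, did not pair the fractions by number. The spread between numbers thus entered their error, and a steady difference within pairs could be missed by them. A fit with the replicate number as a block within sorted cells and within BM also called 0 members in each kind of cell. In LY6G 0 members were called (all tested genes 0%), and 1, Oas2, had an unadjusted p under 0.05. In LY6C 0 were called (all tested genes 0%) and 0 had such a p. In BM 0 were called, against 3.39% of all tested genes, and Irf9 alone had an unadjusted p under 0.05. DESeq2 called 0 members in each of the 3. Median log2 differences of polysomal minus total RNA were 0.08 in LY6G, 0.29 in LY6C and 1.02 in BM, against 0.00, 0.01 and 0.56 over all tested genes.

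Paired by number, 12 of 37 members had more polysomal than total RNA in all 6 sorted pairs, a pattern seen in 16.8% of all tested genes. They were Ifit1bl1, Ifit2, Isg15, Usp18, Oasl2, Oas1a, Oas3, Rtp4, Gbp2, Gbp3, Gbp7 and Ifi35. Only Oas2 was lower in polysomal RNA in all 6 pairs, a pattern of 11.6% of all tested genes. Oas2 differences for numbers 2, 3 and 6 were -0.48, -0.58 and -2.07 in LY6G and -0.59, -0.57 and -0.90 in LY6C. The means were -1.41 ± 0.63 in LY6G and -0.78 ± 0.62 in LY6C (log2, SE, adjusted p = 1 in both).

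Fractions of number 6 stood further apart than those of numbers 2 and 3, in both directions. Both number 6 pairs lay above the other 4 sorted pairs for 11 members (all tested genes 18%), namely Ifit1, Isg15, Usp18, Oas1a, Oas3, Isg20, Bst2, Rtp4, Dhx58, Gbp2 and Ifi35. They lay below for 7 members (all tested genes 20.1%), namely Herc6, Oas2, Eif2ak2, Mx2, Irf7, Xaf1 and Parp14. Isg15 had 2.12 times as much polysomal as total RNA in LY6G and 4.78 times in LY6C with number 6, and 1.22 to 1.34 times in the other 4 pairs. Irf7 went the other way, with polysomal to total ratios of 0.317 in LY6G and 0.316 in LY6C with number 6, and 0.558 to 1 in the other 4 pairs. The SD of the difference over members was 0.71 in LY6G and 0.91 in LY6C with number 6, against 0.20 to 0.46 in the other pairs. Over all tested genes it was 0.71 and 0.98, against 0.37 to 0.67, so the wider spread was not particular to these genes.

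The group means of these 2 genes were not called. Isg15 differed between polysomal and total RNA by 0.81 ± 0.95 in LY6G and 1.82 ± 0.98 in LY6C, and Irf7 by -1.30 ± 0.92 and -1.26 ± 0.92 (log2, SE, adjusted p = 1 in all 4). Within pairs of 1 number Isg15 was positive in all 6, at 0.42, 0.29 and 1.09 in LY6G and 0.37, 0.40 and 2.26 in LY6C for numbers 2, 3 and 6. Leaving out 1 library of number 6 breaks its pair and turned the group means. Isg15 was at -0.26 in LY6G and -0.50 in LY6C without the polysomal library of number 6, and Irf7 at 0.04 and 0.75 without the total one.

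**Figure D4:**
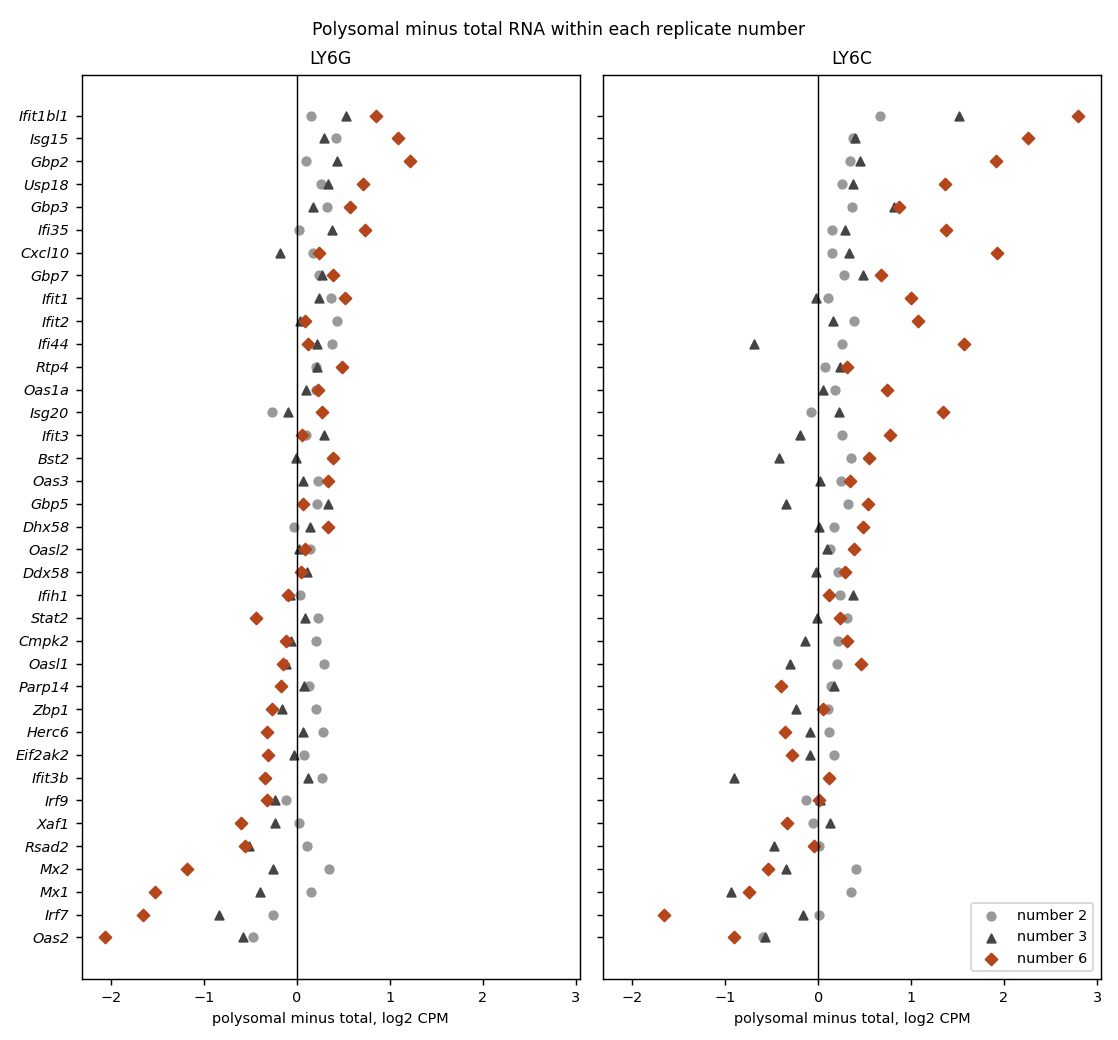
Polysomal minus total log2 CPM of the 37 tested genes within each replicate number, in LY6G (left) and LY6C (right), ordered by the mean over the 6 pairs. Pairs of number 6 (diamonds) spread from -2.07 for Oas2 in LY6G to 2.80 for Ifit1bl1 in LY6C, wider than those of numbers 2 (circles) and 3 (triangles).

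In BM the 2 fractions rest on few counts. Irf9 averaged 7.78 ± 2.65 CPM in polysomal and 1.41 ± 2.44 CPM in total RNA (SD, n = 3 each), a log2 difference of 2.61 ± 0.88 with an adjusted p of 0.0992 and no overlap of the libraries. Irf7, Mx1 and Mx2 were likewise higher in all 3 polysomal libraries than in any total library, with 2, 3 and 0 counts in total RNA. Bst2 was the 1 member lower in all 3 polysomal libraries, at 16.6 ± 5 CPM in polysomal against 28.6 ± 2.89 CPM in total RNA, a difference of -0.81 ± 0.86 (adjusted p = 0.674).

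No member's translational efficiency, the polysomal minus total difference, was found to differ between kinds of cells in the same unpaired fits. The fit with the replicate number as a block called 0 members here too. For LY6G minus LY6C 0 members were called (all tested genes 0%), 0 had an unadjusted p under 0.05 and the median was -0.32, with 3 members above and 34 below 0. Within pairs, median members were at 0.201 in LY6G and 0.199 in LY6C for number 2, and at 0.066 and 0.012 for number 3. For number 6 they were at 0.059 and 0.384 (all tested genes -0.045 and 0), so the populations stood furthest apart in 1 pair of each. For LY6G minus BM 0 were called, against 0.416% of all tested genes, with a median of -1.21 (all genes -0.65). For LY6C minus BM 0 were called, against 0.338%, with a median of -0.74 (all genes -0.64). Irf9 was the 1 member with an unadjusted p under 0.05 in each comparison with BM, at -2.85 ± 0.97 for LY6G (adjusted p = 0.182) and -2.64 ± 0.98 for LY6C (adjusted p = 0.229). DESeq2 called 0 members in each of the 3.

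Counts of several members may include reads of a near-identical or overlapping gene. Of all 50-base windows of the longest transcript, 51.2% of Ifit3 were shared with Ifit3b, 57.6% of Oas1a chiefly with Oas1g, 23.8% of Herc6 with Gm45193, 13.6% of Rtp4 with Gm45338 and 12.8% of Gbp7 with Gm43802. Exons of Ifi35 overlapped those of Gm11626 on the other strand over 16.8% of their bases, and Cxcl10 those of Art3 over 5.91%. The sources used here do not give the strand setting of the counting, so reads of such partners cannot be told apart.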

How the data were processed

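RNA sequencing libraries were rRNA-depleted and stranded, per the labels' protocols. The authors deposited whole-number read counts per Ensembl gene for 18 libraries. STAR 2.5.2a, FastQC, DESeq and DESeq2 and the builds GRCm38 and mm10 are named in the submitters' processing notes. The counting program, its annotation and its strand setting are not given in the sources used here. Symbols were taken from GENCODE M21, which matched 54809 of 54838 identifiers. All coordinates are of GRCm38, and promoter sequences are from RefSeq on GRCm38.p6.

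Genes with a count of at least 10 in enough libraries (edgeR 4.0.16, filterByExpr) left 14181 tested genes. TMM-scaled counts of all 6 groups entered 1 quasi-likelihood fit (robust, common dispersion 0.163, R 4.3.3), and 12 contrasts were tested with Benjamini-Hochberg adjustment over all tested genes at 0.05. All p-values quoted are edgeR's unless DESeq2 (1.42.0) is named. The script was tested on simulated data. Log2 CPM used a prior count of 2. Where BM had 1 to 3 counts, a ratio of pooled counts with its exact 95% interval replaces the fitted difference, and where it had 0 a floor of 3 counts over the group. The p beside such a ratio is from the fit.

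Per the design text replicates were independent biological ones. Deviations from the group means were correlated between libraries with the same number. The values were 0.27 to 0.74 between fractions of a sorted population and between populations within a fraction, so the numbers pair sorted libraries. BM fractions correlated at 0 to 0.03. Values in every sample are given for 12 members of different roles, called or not, and for up to 8 members per comparison with the lowest adjusted p among called members whose groups do not overlap. The members, gene lists and marker lists were chosen with earlier results of these data known. Other scalings, filters, tools, library subsets, a replicate block, thinning and leaving out libraries were tried as alternatives. Values of 1 pathway gene are not reported here.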

Additional observations from a re-analysis of the deposited data

How the results depend on the processing

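The 32 results that the naming rule chose kept their direction in all 498 recomputations and lost 1 call, that of Ddx58 in LY6C total RNA without the BM total library of number 2. Settings in which a gene could not be tested are not among the 498 and do not count as lost calls. The rule took the lowest adjusted p in these same data, so much of this stability follows from the choice. Other polysomal calls were lost with libraries left out. They were Isg15 in LY6G (edgeR adjusted p up to 0.136) and Bst2 (0.167), Cxcl10 (0.0698) and Ddx58 (0.0526) in LY6C. Counts of called members depended more on the setting. Without a filter on low counts they were 34 in LY6G and 36 in LY6C polysomal RNA and 29 and 33 in total RNA against BM, with 1 lower in LY6G than LY6C polysomal RNA, 2 for polysomal minus total RNA in LY6C, and 1 each for the efficiency differences of LY6G and LY6C from BM. DESeq2 gave 22 in LY6G total RNA. Fits of the compared libraries alone gave 30 in LY6G polysomal and 24 in LY6G total RNA. The replicate block within sorted cells and within BM gave 31 in LY6G polysomal, 27 in LY6G total and 28 in LY6C total RNA, and moved no other count by over 1.5 times. Thinning every library to 58193 protein-coding counts left 19 members to test and gave 8 in LY6G and 9 in LY6C polysomal RNA, and 8 in total RNA of each. Without number 6 in the sorted groups the count in LY6G total RNA was 22. Leaving out 1 library gave 10 to 17 in LY6G and 13 to 25 in LY6C polysomal RNA, 9 to 14 in LY6G and 9 to 16 in LY6C total RNA, and 0 to 1 for polysomal minus total RNA in BM. No share of all tested genes stands beside the counts without a filter, of the compared libraries alone or after thinning. The same holds for the ranges with 1 library left out. Those counts and ranges show how far the setting moved the calls and nothing particular to the members. The cause of these shifts was not tested.

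Directions that turned belong to uncalled values. With the number as labelled as a replicate block, shared with BM, Rsad2 was at -1.336 in LY6G (adjusted p = 0.0283) and -1.645 in LY6C polysomal RNA (adjusted p = 0.0136), and this block called 2 members lower in LY6G and 1 in LY6C polysomal RNA and 1 in LY6C total RNA. These lower calls have no share of all tested genes beside them and show nothing particular to the members. Without 1 library, Rsad2 ranged over -0.682 to 1.072 in LY6G and -1.64 to 1.927 in LY6C, and Mx1 over -0.031 to 3.007 in LY6C polysomal RNA. Without number 6 in the sorted groups Rsad2 was at -0.819 and -1.812 and Mx1 at -0.201. Polysomal minus total RNA ranged over -0.262 to 1.439 in LY6G and -0.501 to 2.649 in LY6C for Isg15, over -1.929 to 0.038 and -2.128 to 0.753 for Irf7, and over -1.452 to 0.056 in LY6C for Oas2. Median-ratio factors moved the median of all tested genes to 0.679 for LY6G minus BM polysomal RNA (0.455 with TMM), to 1.357 for LY6C and 1.493 for LY6G minus BM total RNA (1.645 and 1.632), to 0.132 and 0.146 for LY6G minus LY6C polysomal and total RNA (-0.031 and 0.003), and to 0.128 for polysomal minus total RNA in BM (0.555). The share of calls that were higher moved to 62.6% for LY6C minus BM total RNA (73.5% with TMM), 33.5% for polysomal minus total RNA in BM (76.5%), and 56.4% and 55.9% for the efficiency differences of LY6G and LY6C from BM (23.7% and 25%). DESeq2 gave 59.5% for LY6G and 57.1% for LY6C minus BM total RNA. The 53 to 97 member counts of a BM total library limit every value set against it.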
